A study of Mus musculus with 16 samples.

Results

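The change in gene expression from young adulthood to middle age was measured in gastrocnemius, a calf muscle of mainly fast fibres, as 4 samples at 15 months against 4 samples at 3 months. These are 8 of the 16 samples of a study of muscle ageing, taken by their sample titles. All 16 came from untreated female mice of the inbred strain C57Bl/6J, and the other 8 were from mice of 24 and 29 months. No genotype other than the strain and no agent was given for any group. RNA of each sample was labelled with 1 dye and hybridised to its own array of oligonucleotide probes. The 8 arrays of 3 and 15 months shared 1 slide and 1 scan, and the 8 older samples were on a second slide. Whether the 4 samples of an age are 4 animals is not stated, and the spread on which the p-values rest could therefore be technical.

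Limb muscle consists of long contractile fibres wrapped in collagen, most of it made by fibroblasts of the connective tissue, with capillaries, nerve endings and satellite cells between them. In the young animal the fibres and their collagen sheath are still being enlarged, and genes of matrix production and of fetal growth control are known to be more active then than in the mature animal. Adult fibres burn fatty acids and glucose, under the control of insulin, glucocorticoids and the circadian clock.

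On the 8 arrays 51.0% to 58.2% of the spots that were not controls were well above background and none was saturated. All 9 of the muscle fibre markers, such as Acta1, Ckm and Myh4, were well above background, none was called changed by limma (1 at an unadjusted p under 0.05), and their median log2 change was 0.20. All 9 had a positive change. A list score is the mean, over the genes of a list, of a gene's log2 level minus its mean over the 8 arrays. That of the fibre markers was -0.28 to 0.03 at 3 months and 0.04 to 0.25 at 15 months. Each level below is on a log2 scale after scaling of the arrays to a common 75th percentile, so that 1 unit is a doubling, and levels of different genes are not comparable because their probes differ. A gene was called changed at an adjusted p under 0.05 (limma, Benjamini-Hochberg over all 21184 genes tested). The 15 months samples were in array row 1 of the slide and the 3 months samples in row 2. Position on the slide and age cannot be told apart.

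Between 3 and 15 months 782 of the 21184 genes changed, which is 3.69%, with 395 (1.86%) higher and 387 (1.83%) lower at 15 months. Counts of calls in a list below are to be read beside these shares. Of the 782, 574 had a RefSeq symbol, 516 differed at least 1.5-fold and 181 at least 2-fold. The median log2 change over all genes was -0.012 and the median size of a change was 0.13. The 4 arrays of one age all lay beyond the 4 of the other for 780 of the called genes, and for 2614 genes or 12.3% of all tested, 5.77% with 15 months higher and 6.57% with it lower. The first principal component held 32.6% of the variance and separated the ages, with scores of -32.4 to -13.3 at 3 months and 17.4 to 29.9 at 15 months. The number of calls fell whichever array was left out, to 349 to 537, in fits with fewer residual degrees of freedom. It was 349 without 15 months replicate 2, 352 without 3 months replicate 4, 418 without 15 months replicate 3, 447 without 3 months replicate 3, 496 without 15 months replicate 1 and 501 without 3 months replicate 1. It was 212 when the older ages were added to the estimate of the spread, and 70.8% of those were higher at 15 months. With a change of at least 1.5-fold as the null bound, 19 genes passed, 68.4% of them higher.

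**Figure D1:**
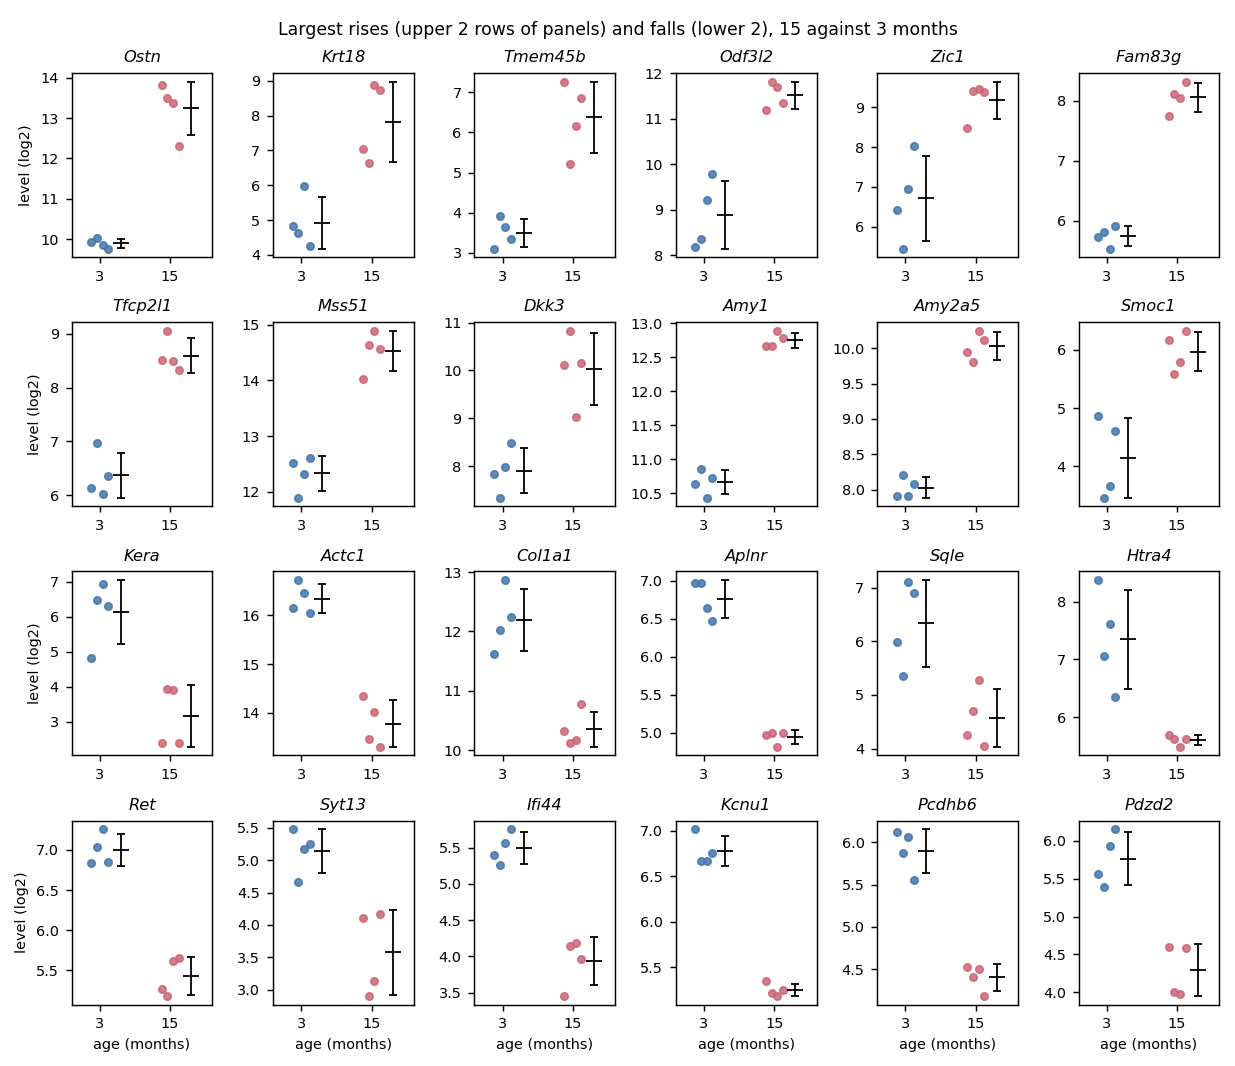
Levels (log2, y axis) of the 12 genes with the largest rises and the 12 with the largest falls at 3 and 15 months (x axis). Each point is 1 array, and the bar beside the points is the mean with the SD of 4 arrays. For each gene the 4 points of one age lie beyond the 4 of the other, as the choice of these genes requires, and Ostn rose by 3.35. Signals of Tmem45b at 3 months and of Kera, Ifi44 and Syt13 at 15 months were not well above background, so their plotted distances are not exact changes.

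The largest rise was in Ostn, which encodes osteocrin (musclin), a secreted peptide of muscle and bone that acts on the natriuretic peptide system. Its level was 9.93, 10.04, 9.86 and 9.76 in the 4 samples of 3 months and 13.82, 13.49, 13.37 and 12.30 in those of 15 months. All 4 older samples were high, with a wide gap between the ages. The log2 change was 3.35 ± 0.28 (SE), a 10.2-fold rise (limma adjusted p = 0.00156).

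A pair of amylase probes rose about equally and with little spread. Amylases cut the chains of starch and glycogen. Amy1 was at 10.64, 10.86, 10.43 and 10.72 at 3 months and at 12.66, 12.66, 12.89 and 12.78 at 15 months, a 4.25-fold rise (log2 change 2.09 ± 0.11, limma adjusted p = 0.000147). Amy2a5 rose 4.01-fold (2.01 ± 0.12, limma adjusted p = 0.000147). The mouse amylase genes are near-identical copies, so which of them gave the signal is uncertain.

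Fam83g, which encodes an adaptor that anchors the kinase CK1, was at 5.72, 5.81, 5.53 and 5.91 at 3 months and at 7.74, 8.11, 8.05 and 8.32 at 15 months. The ages were well apart, and the rise was 4.99-fold (log2 change 2.32 ± 0.14, limma adjusted p = 0.000147). Mss51, a muscle gene tied to mitochondrial function, was at 12.52, 11.89, 12.32 and 12.60 and then at 14.02, 14.63, 14.89 and 14.57, a rise of 2.20 ± 0.21 (limma adjusted p = 0.00252). Tfcp2l1, a transcription factor of the grainyhead-like family, rose 4.69-fold from 6.13, 6.96, 6.02 and 6.35 to 8.51, 9.06, 8.5 and 8.32 (limma adjusted p = 0.00285). Odf3l2, a member of the outer dense fibre family, rose 6.20-fold from 8.18, 8.36, 9.22 and 9.78 to 11.20, 11.82, 11.71 and 11.34 (limma adjusted p = 0.00689). Its 3 months samples differed among themselves by more than its 15 months samples.

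Other rises came with wider spread or weaker signal. Dkk3, a secreted glycoprotein of the Dickkopf family, rose by 2.12 ± 0.36 (limma adjusted p = 0.0173), and Smoc1, a secreted calcium-binding matrix protein, by 1.83 ± 0.32 (limma adjusted p = 0.0182). Smoc1 was well above background on only 1 of the 4 arrays of 3 months. Tmem45b, a transmembrane protein gene, was well above background on no array of 3 months and on all 4 of 15 months, where its level was 7.25, 5.22, 6.15 and 6.86. It was at least 4.11-fold higher at 15 months (measured means 3.5 and 6.37, limma adjusted p = 0.00883). Such a bound takes each array of the dim age at its own signal or at the lowest signal marked as well above background on that array, whichever is higher. Krt18, a keratin of simple epithelia, was at 4.82, 4.63, 5.98 and 4.25 and then at 7.03, 6.64, 8.89 and 8.73. It was well above background on 2 arrays of 3 months. Its rise of 2.90 ± 0.56 (limma adjusted p = 0.0277) lost its call, with an adjusted p up to 0.0821, without 3 months replicate 1, 2 or 4 or 15 months replicate 3 or 4. The zinc finger gene Zic1 rose by 2.46 ± 0.48 on its brighter probe (limma adjusted p = 0.0281), while its other kept probe differed in sign. That call was lost without 3 months replicate 1 or 3 or 15 months replicate 2, 3 or 4, with an adjusted p up to 0.0845.

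The falls included those of a matrix proteoglycan, known only as a bound, and of a fetal actin. Kera, which encodes keratocan, a small proteoglycan of tendon and cornea, was at 4.83, 6.49, 6.94 and 6.30 at 3 months and at 2.40, 3.95, 3.91 and 2.40 at 15 months. No array of 15 months was well above background, so the level was at least 3.24-fold higher at 3 months (measured means 6.14 and 3.17, limma adjusted p = 0.0186). Without 3 months replicate 4 the adjusted p was 0.0604. Actc1, the cardiac actin that is also used by developing limb muscle, was at 16.15, 16.72, 16.44 and 16.04 and then at 14.35, 13.47, 14.01 and 13.31. It was lower in all 4 older samples, by a log2 change of -2.55 ± 0.24, or 5.87-fold (limma adjusted p = 0.00252).

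A ligand and its receptor fell together. Aplnr encodes the apelin receptor, found mainly on endothelial cells, and Apln its peptide ligand. Aplnr was at 6.97, 6.97, 6.64 and 6.47 at 3 months and at 4.97, 4.99, 4.81 and 5.0 at 15 months, a 3.53-fold fall (log2 change -1.82 ± 0.13, limma adjusted p = 0.000378). Apln was at 6.76, 7.03, 6.54 and 6.41 and then at 5.64, 4.76, 4.96 and 5.59, a 2.73-fold fall (-1.45 ± 0.22, limma adjusted p = 0.012). Both ages were separate for both genes.

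Other large falls were in signalling and channel genes. Ret, the receptor tyrosine kinase for ligands of the GDNF family, was at 6.84, 7.04, 7.26 and 6.85 and then at 5.27, 5.18, 5.62 and 5.65, a 2.97-fold fall (limma adjusted p = 0.0024). Kcnu1, a potassium channel gene best known in sperm, fell 2.89-fold, from 7.02, 6.67, 6.67 and 6.76 to 5.35, 5.22, 5.19 and 5.25 (limma adjusted p = 0.000213). The 4 older samples of Kcnu1 lay within a narrow band. Pdzd2, a PDZ domain protein gene, fell by 1.47 and the protocadherin gene Pcdhb6 by 1.5 on the log2 scale (limma adjusted p = 0.00956 and 0.00245), each well above background on 2 arrays of 15 months. Htra4, a serine protease gene, fell by 1.74 on the log2 scale (limma adjusted p = 0.0337). Its call was lost without 3 months replicate 2 or 3 or any array of 15 months, with an adjusted p up to 0.0902. Syt13, of the synaptotagmin family, was at least 1.63-fold higher at 3 months (measured means 5.15 and 3.57, limma adjusted p = 0.0282). It lost its call without 3 months replicate 1, 3 or 4 or 15 months replicate 2 or 3, with an adjusted p up to 0.0816.

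Most collagen genes that changed fell. Of 15 tested members of the list of fibrillar and network collagens, 8 fell, none rose, and 15 of 15 had a negative change, with a median of -0.75. Of all genes tested 1.83% fell. Over all 28 collagen genes tested 9 fell and 3 rose, the rises being in Col7a1, Col11a2 and Col24a1, which are outside the list. Col11a2 and Col24a1 are fibrillar collagens too, so the lack of a rise depends on which genes were listed. With all 16 arrays in the fit each of the 8 lost its call (limma adjusted p = 0.06 for Col5a3, 0.137 for Col1a1 and up to 0.559 for Col5a1). In whole tissue, fewer cells of a type and less RNA per cell cannot be told apart. Type I collagen, the main fibre-forming collagen, is built from the products of Col1a1 and Col1a2. Col1a1 was at 11.62, 12.03, 12.87 and 12.25 at 3 months and at 10.33, 10.12, 10.18 and 10.78 at 15 months, a 3.58-fold fall (log2 change -1.84 ± 0.25, limma adjusted p = 0.00883). Col1a2 was at 12.79, 13.23, 13.65 and 13.07 and then at 11.95, 11.97, 12.09 and 12.24, a 2.17-fold fall (-1.12 ± 0.17, limma adjusted p = 0.0112). Neither gene's ages overlapped, and 3 months replicate 3 was the highest array for both.

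The promoters of called collagen genes are shown because these genes moved together. Of the 8 called members, 7 had an entry in the RefSeq promoter table of build GRCm38.p6. The 250 bases before the start site were searched on both strands for the CCAAT box and for TATAAA, letters chosen after the values were seen, which do not overlap each other. CCAAT was in 4 of the 7 windows, against 37.5% of all 27025 genes with a window, and TATAAA in 1 of 7, against 14.3%. A match is only a description of the letters. Capitals mark the matches in the windows of Col1a2 (chr6:4505368-4505617, plus strand), Col3a1 (chr1:45311288-45311537, plus strand) and Col5a3 (chr9:20815068-20815317, minus strand), each written 5′ to 3′ on the strand of the gene.
Col1a2: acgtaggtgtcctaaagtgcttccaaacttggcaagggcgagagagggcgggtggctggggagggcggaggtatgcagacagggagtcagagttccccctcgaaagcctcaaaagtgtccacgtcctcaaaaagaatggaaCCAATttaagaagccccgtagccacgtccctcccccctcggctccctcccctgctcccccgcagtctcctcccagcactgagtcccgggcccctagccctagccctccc
Col3a1: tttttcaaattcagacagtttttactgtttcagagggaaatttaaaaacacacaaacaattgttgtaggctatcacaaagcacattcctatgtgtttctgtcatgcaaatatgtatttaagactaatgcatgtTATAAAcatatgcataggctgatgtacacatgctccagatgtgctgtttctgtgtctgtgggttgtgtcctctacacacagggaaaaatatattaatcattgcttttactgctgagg
Col5a3: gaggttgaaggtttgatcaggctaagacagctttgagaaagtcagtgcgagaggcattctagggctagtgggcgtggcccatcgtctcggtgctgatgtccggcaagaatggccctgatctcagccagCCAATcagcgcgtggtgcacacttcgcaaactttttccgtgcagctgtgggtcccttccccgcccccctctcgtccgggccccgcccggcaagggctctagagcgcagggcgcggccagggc

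Col3a1, which forms fibres with type I collagen, was at 11.82, 12.23, 12.59 and 11.94 at 3 months and at 10.65, 10.55, 10.47 and 11.38 at 15 months. Its 2.60-fold fall (limma adjusted p = 0.0157) had an adjusted p of 0.052 without 15 months replicate 2. Col5a3 and Col5a1, chains of type V collagen that sits in the core of type I fibres, fell by 0.92 and 0.72 on the log2 scale (limma adjusted p = 0.0112 and 0.0386). Col5a1 lost its call without 3 months replicate 2 or 4 or any array of 15 months, with an adjusted p up to 0.111.

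Type IV collagen makes the sheet of the basement membrane around each fibre and capillary. Its chains Col4a1 and Col4a2 fell. Col4a1 was at 10.48, 10.61, 10.64 and 10.59 and then at 9.66, 9.72, 9.77 and 9.94, a 1.75-fold fall (limma adjusted p = 0.00323). Col4a2 was at 10.48, 10.51, 10.64 and 10.49 and then at 9.68, 9.80, 9.91 and 9.70, a 1.69-fold fall (limma adjusted p = 0.00357). Col6a1, of the beaded filaments next to the basement membrane, fell by 0.80 on the log2 scale (limma adjusted p = 0.0107). The 7 members without a call ranged in log2 change from Col15a1 at -1.19 to Col14a1 at -0.05, and the ages of Col15a1 overlapped.

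**Figure D2:**
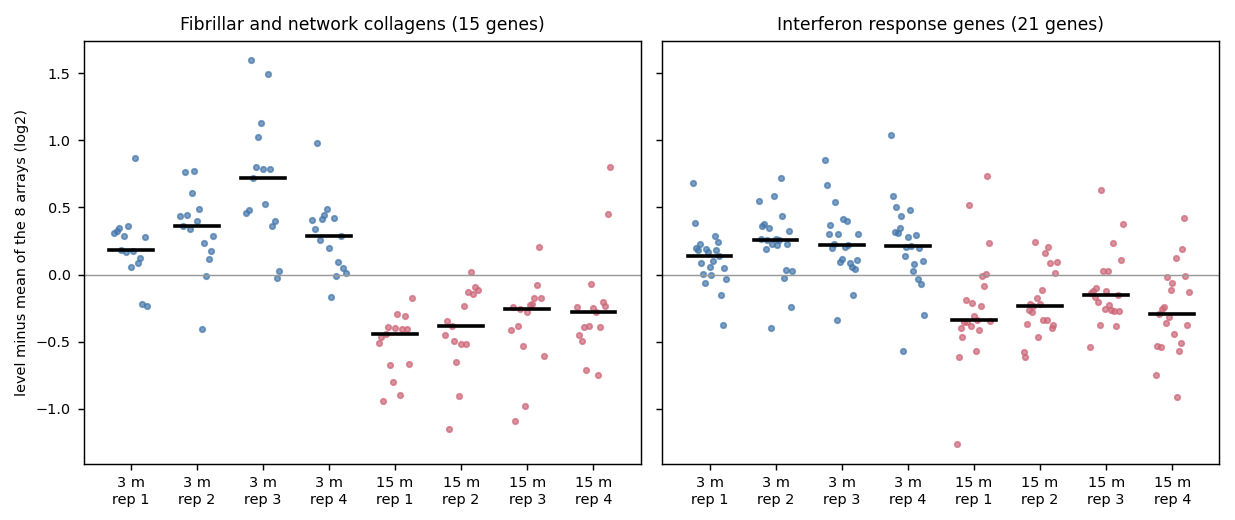
Level of each gene minus its mean over the 8 arrays (log2, y axis) by array (x axis, age in months and replicate) for 15 collagen genes and 21 interferon response genes. Points are genes and black bars are medians. For both groups every 3 months array has its median above 0 and every 15 months array below it, and the collagens are highest in 3 months replicate 3.

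Genes that process collagen gave fewer calls. Of 17 tested genes of collagen folding and crosslinking, 2 fell and none rose, with a median of -0.14. They were Loxl2, a lysyl oxidase that crosslinks collagen, and Fkbp10, a chaperone of collagen in the endoplasmic reticulum. Loxl2 was at 9.41, 9.58, 9.82 and 9.25 and then at 8.46, 8.42, 8.69 and 8.66, and Fkbp10 at 9.07, 9.21, 9.55 and 9.22 and then at 8.52, 8.49, 8.42 and 8.55. The ages did not overlap for either, with log2 changes of -0.96 ± 0.13 and -0.76 ± 0.11 (limma adjusted p = 0.00883 and 0.00956). The 3 kept probes of Loxl2 ranged in log2 change from -0.96 to -0.19. The median of this list was -0.06 without 3 months replicate 4 and -0.07 without 15 months replicate 2.

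Among 19 other matrix proteins 2 fell, with a list median of -0.10. They were Sparc, a collagen-binding protein, by 0.69, and Lamb1, a laminin chain of the basement membrane, by 0.59 on the log2 scale (limma adjusted p = 0.0481 and 0.0212). Sparc lost its call without any array but 3 months replicate 1, with an adjusted p up to 0.125. Lamb1 lost it without 3 months replicate 3 or 4 or 15 months replicate 1 or 2, with an adjusted p up to 0.066. Of 9 small leucine-rich proteoglycans 1 changed, Kera, which entered the test through its 3 months signal alone, and the list median was -0.09. Of 9 matrix proteases and inhibitors 0 passed (limma), 3 had an unadjusted p under 0.05, and the change of lowest p was Timp1, an inhibitor of matrix metalloproteases, at -0.70 (limma adjusted p = 0.0816). Of 19 genes of TGF-beta and BMP signalling 0 passed (limma) and 5 had an unadjusted p under 0.05, with a median of -0.07.

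The fibroblasts that make collagen had no called marker. Of 14 fibroblast markers 0 passed (limma) and 3 had an unadjusted p under 0.05, with a median of -0.08, and their summed signal was 84400 to 130000 at 3 months and 91000 to 103000 at 15 months. Of 7 tested tendon markers 1 fell and 1 rose, namely Kera and Cilp, and the defining tendon markers Tnmd and Mkx were below the detection filter, which asks for a signal well above background on all 4 arrays of an age. Cilp, a cartilage matrix protein, rose by 1.32 (limma adjusted p = 0.0402) and lost its call without any array of 3 months or without 15 months replicate 1 or 3, with an adjusted p up to 0.112. The part of tendon tissue in the fall of Kera was not tested.

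Imprinted genes, of which only the copy of one parent is expressed and many of which govern fetal growth, included several falls. Of 12 tested members 3 fell, against 1.83% of all genes, and none rose, 10 had a negative change and the median was -0.58. With all 16 arrays in the fit Meg3 and Mest lost their calls (limma adjusted p = 0.0802 and 0.308). In that fit Plagl1 was read by another of its probes, the brightest over 16 arrays. That probe had a log2 change of 0.02 (limma adjusted p = 0.998), so it does not bear on the call of the first probe. Mest, a paternally expressed gene of mesoderm, was at 6.64, 6.28, 6.92 and 6.14 and then at 5.50, 5.10, 5.18 and 5.0, a 2.46-fold fall (limma adjusted p = 0.00917). Meg3, a long noncoding RNA expressed from the maternal copy, was at 11.86, 12.12, 11.96 and 11.32 and then at 10.79, 10.36, 10.28 and 11.28. Its ages were nearly touching, and its fall of 1.13 ± 0.24 (limma adjusted p = 0.0392) lost its call without 3 months replicate 1, 2 or 3 or 15 months replicate 1, 2 or 3, with an adjusted p up to 0.111. Plagl1, a zinc finger regulator of other imprinted genes, fell by 0.78 on its brightest probe (limma adjusted p = 0.0322), and 1 of its 4 probes differed in sign. Plagl1 lost its call without any array but 15 months replicate 1, with an adjusted p up to 0.0912. Igf2, the fetal growth factor, had separate ages and a log2 change of -0.59 (limma adjusted p = 0.0575), and H19 had a change of -0.68 with overlapping ages.

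Growth signalling through insulin and IGF showed no common direction, with a median of 0.02 over 17 genes. Foxo1, the transcription factor that insulin signalling holds out of the nucleus, was at 9.94, 10.36, 10.48 and 10.75 and then at 11.67, 12.10, 11.89 and 11.74, a 2.77-fold rise (limma adjusted p = 0.00459). Irs1, the adaptor that carries the signal from the receptors, was at 12.12, 12.85, 13.07 and 12.75 and then at 12, 11.64, 11.85 and 11.66. It fell by 0.91 (limma adjusted p = 0.0364) and lost its call without any array but 3 months replicate 1, with an adjusted p up to 0.106. Igf1 had a change of -0.38 with the ages separate on its brightest probe (limma adjusted p = 0.106), and its 4 kept probes ranged from -0.91 to -0.38. The myostatin gene Mstn changed by -0.09, less than its SE of 0.14. Acvr2b, the receptor of myostatin and activin, fell by 0.69 ± 0.11, from 12.02, 12.10, 12.45 and 12.29 to 11.46, 11.62, 11.39 and 11.61 (limma adjusted p = 0.0149).

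Genes of dividing and of embryonic cells gave few calls. Of 14 proliferation genes above background 2 fell, the replication helicase genes Mcm5 (-0.88, limma adjusted p = 0.0121) and Mcm3 (-0.43, limma adjusted p = 0.0241). Mcm5 was well above background on 1 array of 15 months. Mcm3 lost its call without 3 months replicate 1, 3 or 4 or 15 months replicate 1, 2 or 3, with an adjusted p up to 0.0724, and it had the opposite sign in the authors' deposited values. A further 10 listed proliferation genes, Top2a and Cdk1 among them, were below the detection filter at both ages. Of 15 satellite cell and myogenic genes 2 fell, both of the Notch pathway that keeps satellite cells quiet. Heyl, a Notch target, was at 7.98, 7.71, 8.37 and 8.29 and then at 6.80, 6.68, 6.93 and 6.89, a 2.39-fold fall (limma adjusted p = 0.00459). Notch3 fell by 0.66 (limma adjusted p = 0.0173), with an adjusted p of 0.0501 without 15 months replicate 3. It is counted again below among the smooth muscle and pericyte markers. Which cells of the whole muscle gave these 2 falls was not tested. The satellite cell gene Pax7 had a change of -0.69 with overlapping ages (limma adjusted p = 0.137).

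Of 9 embryonic and neonatal muscle genes, Actc1 alone passed (limma). Embryonic myosin Myh3 had a change of 1.32 with overlapping ages (limma adjusted p = 0.122). Neonatal Myh8 had a change of 0.11, and its signal is uncertain because the myosin heavy chain genes share long near-identical stretches. Of 18 genes of the response to denervation 1 rose and 2 fell, with a median of 0.17. Hdac4, a deacetylase that relays loss of nerve input, rose by 0.56, and Hdac9 and the transcription factor Sox4 fell by 0.97 and 0.92 (limma adjusted p = 0.0251, 0.0374 and 0.00285). Sox4 kept its call without any single array. Hdac4 lost it without 3 months replicate 1, 2 or 4 or 15 months replicate 2, 3 or 4, with an adjusted p up to 0.0796. Hdac9 lost it without any array but 3 months replicate 2, with an adjusted p up to 0.0999. Of 11 genes of the neuromuscular junction 1 rose, Dok7, the adaptor of the receptor MuSK, by 0.92 (limma adjusted p = 0.0233). It lost its call without 3 months replicate 1, 3 or 4 or 15 months replicate 2, with an adjusted p up to 0.072.

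No member of the slow fibre, fast fibre and oxidative phosphorylation lists was called (limma, 10, 14 and 34 genes). Their medians were 0.23, 0.08 and -0.05, and 8, 12 and 10 members had a positive change. Only 3.69% of all genes were called, so lists of this size would hold few calls in any case. In these lists 0, 2 and 0 members had an unadjusted limma p under 0.05. The largest respiratory chain change was a log2 change of -0.23. Summed slow fibre signal ranged from 141000 to 472000 at 3 months and from 255000 to 679000 at 15 months.

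Single regulators of fuel use rose. Of 26 genes of fatty acid uptake and oxidation 2 rose, with a list median of 0.11. Ucp3, a mitochondrial carrier induced by fatty acids, was at 9.26, 9.46, 9.52 and 9.54 and then at 11.31, 11.14, 10.42 and 11.19, a 2.97-fold rise (limma adjusted p = 0.00459). Pdk4, the kinase that shuts pyruvate out of the mitochondrion, was at 13.80, 13.66, 13.78 and 14.23 and then at 15.44, 15.71, 14.57 and 15.68. Its 2.80-fold rise (limma adjusted p = 0.0163) had an adjusted p of 0.0501 without 15 months replicate 2. Replicate 3 was the lowest 15 months array for both genes. Ppargc1a, the coactivator of mitochondrial genes, had a change of 0.68 with the ages separate (limma adjusted p = 0.0551).

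Of 23 genes of glycolysis and glycogen 1 rose. Ppp1r3c directs a phosphatase to glycogen and favours its storage. It was at 13.12, 13.59, 13.60 and 13.97 and then at 15.15, 15.09, 15.24 and 14.61, a 2.74-fold rise (limma adjusted p = 0.00828). Of 18 lipid synthesis genes 1 rose and 1 fell. Scd1, which puts a double bond into fatty acids, was at 7.96, 8.75, 7.76 and 7.41 and then at 9.77, 9.05, 9.31 and 9.62, and Sqle, an enzyme of cholesterol synthesis, at 5.99, 5.36, 7.10 and 6.89 and then at 4.26, 4.69, 5.28 and 4.05. The ages did not overlap for either gene, though those of Sqle nearly touched, and Sqle was well above background on 1 array of 15 months. The log2 changes were 1.47 ± 0.27 and -1.76 ± 0.40 (limma adjusted p = 0.0232 and 0.0481). Scd1 lost its call without 3 months replicate 1, 3 or 4 or 15 months replicate 1, 3 or 4, with an adjusted p up to 0.0626, and Sqle without any array but 3 months replicate 2, with an adjusted p up to 0.125.

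Scd1 is also abundant in fat cells. Of 11 tested adipocyte markers 2 rose, against 1.86% of all genes, with a median of 0.39. A positive change was seen in 8 and a negative one in 3, down to -0.54. Their summed signal overlapped, at 20000 to 27400 at 3 months and 18100 to 26800 at 15 months. So did their list score, at -0.46 to -0.2 and -0.23 to 0.72. Retn, the adipocyte hormone resistin, was at 7.99, 8.25, 8.03 and 7.85 and then at 9.79, 8.84, 9.46 and 9.52, a 2.58-fold rise (limma adjusted p = 0.00883). Adrb3, the beta-3 adrenergic receptor, rose by 1.42 (limma adjusted p = 0.0372) and lost its call without any array but 15 months replicate 2, with an adjusted p up to 0.0933. Adipoq, the fat cell hormone adiponectin, had a change of 1.79 with the ages separate (limma adjusted p = 0.0578). The defining markers Lep and Ucp1 were below the detection filter. The part of fat tissue in the rise of Scd1 was not tested.

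**Figure D3:**
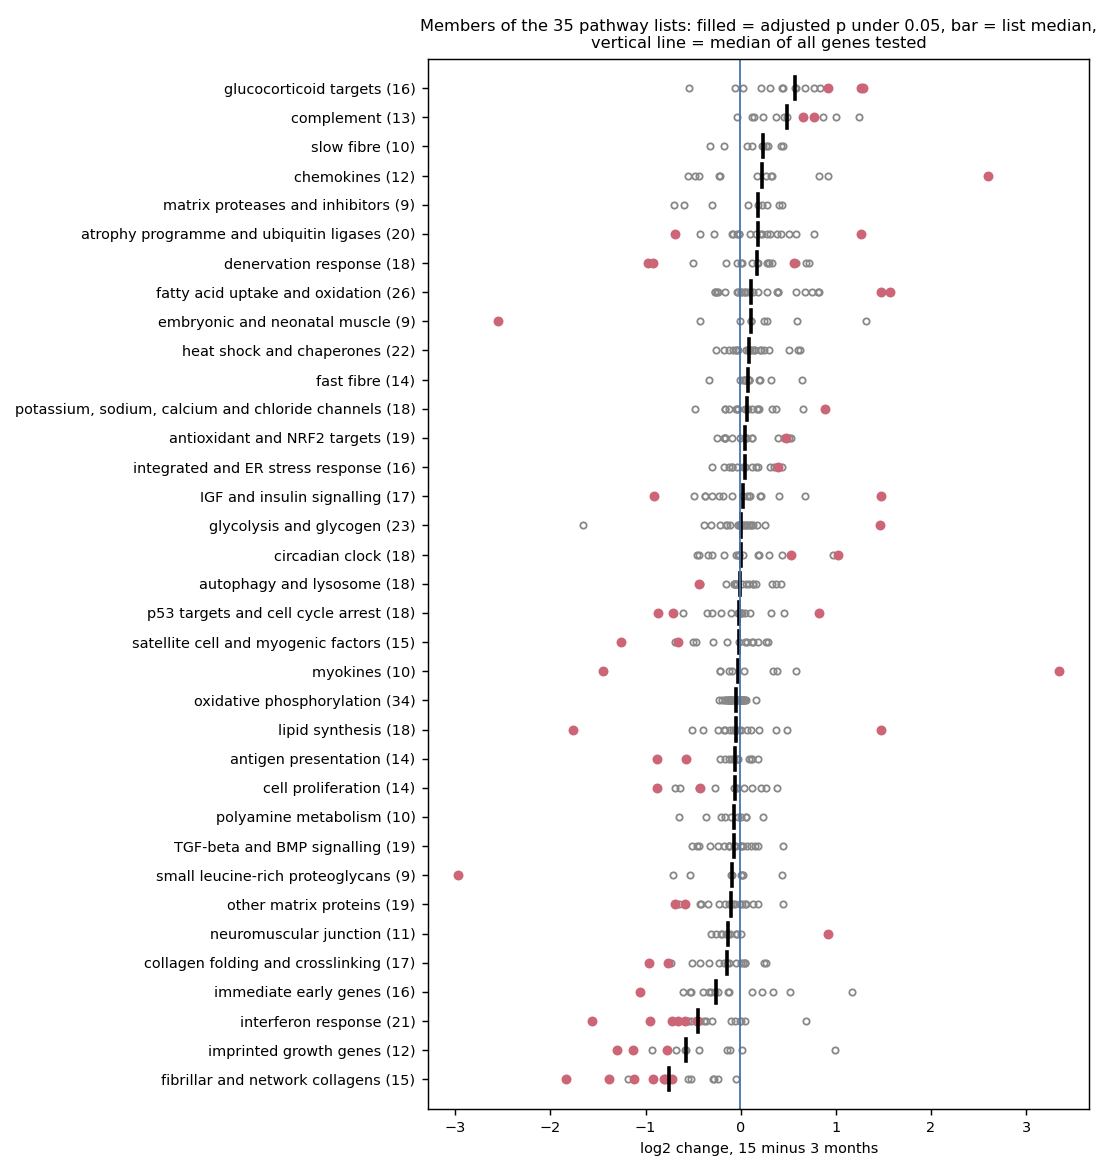
Log2 change from 3 to 15 months (x axis) of every tested member of the 35 pathway lists (y axis, number tested in brackets). Filled points passed the test, open points did not, black bars are list medians and the vertical line is the median of all genes. The collagens and the imprinted genes lie farthest to the left, with medians of -0.75 and -0.58, and the glucocorticoid targets farthest to the right, with 0.57.

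Several genes that glucocorticoids switch on rose. Glucocorticoids act through a nuclear receptor, encoded by Nr3c1, that turns on genes of protein breakdown and fuel storage in muscle. Of 16 tested targets 3 rose, none fell, 14 had a positive change and the median was 0.57, the highest of the 35 pathway lists. Of all genes 1.86% rose. The list score was -0.77, -0.34, 0.02 and 0.02 at 3 months and 0.18 to 0.4 at 15 months. Replicates 3 and 4 of 3 months were thus nearer to the older samples than replicates 1 and 2 were. Zbtb16, a zinc finger repressor, was at 11.37, 12.27, 11.73 and 12.13 and then at 12.96, 13.31, 13.09 and 13.31, a 2.45-fold rise (limma adjusted p = 0.0107). Tsc22d3 encodes GILZ, a mediator of the anti-inflammatory effect, and was at 13.55, 13.59, 14.44 and 14.01 and then at 14.78, 15.04, 14.80 and 14.65. Mt2, a metallothionein that binds zinc, was at 10.08, 10.32, 11.19 and 11.28 and then at 11.76, 11.99, 12.29 and 11.88. All 3 genes had separate ages, and the 3 months samples spread more than the 15 months samples. With all 16 arrays in the fit Zbtb16 kept its call and the others lost it (limma adjusted p = 0.00308, and 0.052 for Tsc22d3 and 0.154 for Mt2). The log2 changes of Tsc22d3 and Mt2 were 0.92 ± 0.19 and 1.26 ± 0.27 (limma adjusted p = 0.0364 and 0.0397). Tsc22d3 lost its call without any array but 3 months replicate 3, with an adjusted p up to 0.106, and Mt2 without any array but 3 months replicates 3 and 4, with an adjusted p up to 0.105. Among members with no call were Glul (0.92), Fkbp5 (0.83) and Ddit4 (0.77). Nr3c1 had a change of -0.06 and Sgk1 one of -0.54.

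The clock list had no common direction. Of 18 members 2 rose, 9 were positive and the median was 0.00. Per2, a repressor of the clock, was at 5.93, 5.52, 5.88 and 5.61 and then at 6.33, 6.76, 7.02 and 6.89, a 2.02-fold rise (limma adjusted p = 0.0131). Cry2, its partner in repression, was at 11.53, 11.48, 11.40 and 11.21 and then at 11.86, 12, 11.92 and 11.95, a 1.44-fold rise (limma adjusted p = 0.0172). Cry2 had an adjusted p of 0.0594 without 15 months replicate 2. Nr1d1, Arntl and Dbp had changes of -0.46, 0.18 and -0.34 with overlapping ages. The hour of sampling is not known here, and its part was not tested. The 250 bases before the start of Cry2, the called clock gene in the RefSeq promoter table, held neither the E-box CACGTG nor the D-box TTATGTAA on either strand. These letters are in 6.86% and 0.977% of all genes with a window.

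**Figure D4:**
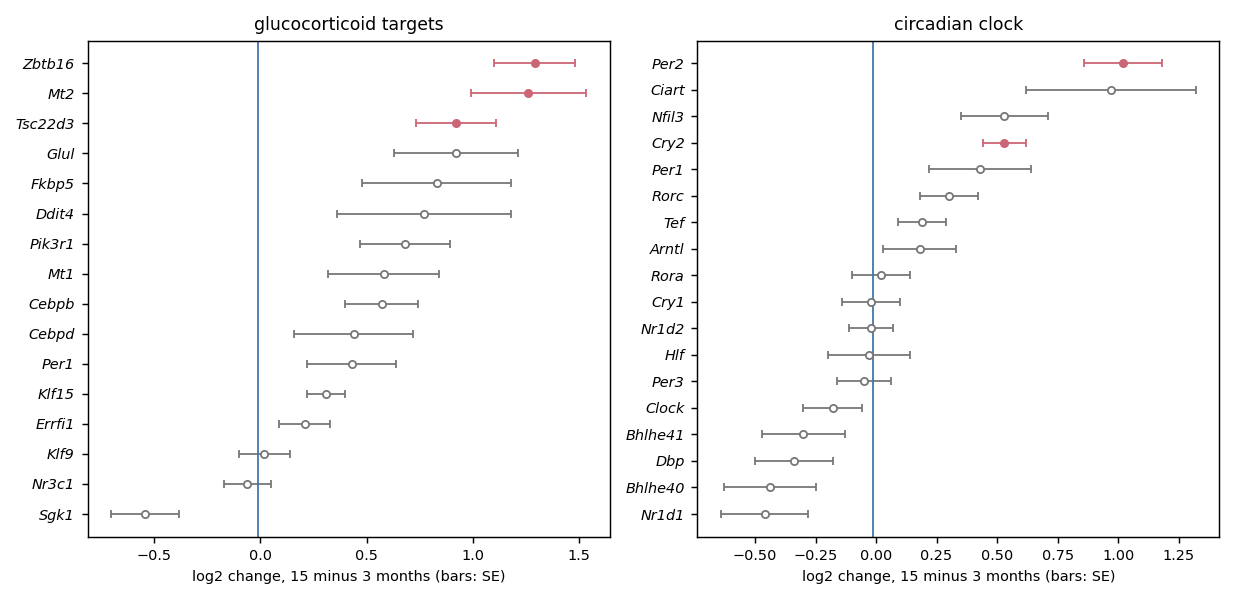
Log2 change from 3 to 15 months with its SE (x axis) of 16 glucocorticoid targets and 18 circadian clock genes (y axis). Filled points passed the test and the vertical line is the median of all genes. In the glucocorticoid list 14 of 16 points lie right of 0, in the clock list 9 of 18.

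Genes of muscle wasting, stress and arrest gave single calls. Of 20 atrophy genes Mt2 rose and Acvr2b fell, and the ubiquitin ligase genes Fbxo32 and Trim63, the usual markers of atrophy, had changes of 0.51 and 0.10 with overlapping ages. Of 18 autophagy and lysosome genes 1 fell, Ctsl, a lysosomal protease, by 0.44 (limma adjusted p = 0.0355). It lost its call without any array but 15 months replicate 4, with an adjusted p up to 0.105. Of 16 genes of the integrated stress response Asns, asparagine synthetase, rose by 0.39 (limma adjusted p = 0.0407) and lost its call without any array, with an adjusted p up to 0.12. Of 19 antioxidant genes Nqo1, a quinone reductase, rose by 0.48 (limma adjusted p = 0.0484) and lost its call without any array but 3 months replicate 1, with an adjusted p up to 0.125. Of 22 heat shock genes and 10 polyamine genes 0 passed (limma), with 5 and 3 at an unadjusted p under 0.05.

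In the p53 and arrest list of 18 genes 2 fell and 1 rose. Cdkn1b encodes p27, an inhibitor of the cell cycle. It was at 11.41, 11.35, 11.87 and 11.73 and then at 10.71, 10.81, 10.73 and 10.65, a 1.82-fold fall (limma adjusted p = 0.00957). Gadd45b, a stress sensor, fell by 0.71 (limma adjusted p = 0.0397) and lost its call without 3 months replicate 1, 3 or 4 or 15 months replicate 1, 2 or 3, with an adjusted p up to 0.103. Eda2r, the receptor of ectodysplasin A2, was well above background on no array of 3 months and on all 4 of 15 months, and was at least 1.58-fold higher at 15 months (measured means 4.23 and 5.05, limma adjusted p = 0.0453). Its call was lost without any array but 3 months replicate 3, with an adjusted p up to 0.121. The p21 gene Cdkn1a had a change of 0.00 ± 0.26. Of 16 immediate early genes Nr4a1, a nuclear receptor induced by exercise, fell by 1.06, from 14.69, 14.84, 15.81 and 15.31 to 14.12, 14.18, 14.10 and 14.03 (limma adjusted p = 0.0347). It lost its call without 3 months replicate 4 or any array of 15 months, with an adjusted p up to 0.0971. Of 18 ion channel genes Kcnq5, a potassium channel, rose by 0.89 (limma adjusted p = 0.00899).

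A group of interferon response genes fell. Interferons warn cells of viruses, and their targets include antiviral proteins and parts of the immunoproteasome. Of 21 tested members 7 fell, none rose, 18 had a negative change and the median was -0.45, or -0.262 with normexp background correction. Over all genes 1.83% fell. With all 16 arrays in the fit each of the 7 lost its call (limma adjusted p = 0.137 for Ifi44 and up to 0.917 for Psmb9). Ifi44 was at 5.40, 5.26, 5.57 and 5.76 and then at 3.45, 4.14, 4.18 and 3.97. It was well above background on no array of 15 months, so its level was at least 2.08-fold higher at 3 months (measured means 5.50 and 3.93, limma adjusted p = 0.00366). Ifi44 counts among the 7 but entered the test through 3 months alone, so the detection filter favours its fall. Isg15, a ubiquitin-like protein, was at 9.12, 9.31, 9.30 and 9.44 and then at 8.47, 8.67, 8.77 and 8.40 (limma adjusted p = 0.0123). Gbp3, a guanylate-binding protein, was at 8.05, 7.93, 8.33 and 8.25 and then at 7.05, 7.05, 7.52 and 7.13 (limma adjusted p = 0.00956). The ages were separate in each, and the changes of Isg15 and Gbp3 were -0.72 ± 0.11 and -0.95 ± 0.14.

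The other interferon genes that fell were Xaf1 (-0.59), the antiviral tether Bst2 (-0.66), Gbp2 (-0.46) and the immunoproteasome subunit Psmb9 (-0.46), with limma adjusted p = 0.0105, 0.02, 0.0189 and 0.019. Bst2 lost its call without 3 months replicate 4 or 15 months replicate 1 or 3, Gbp2 without 3 months replicate 4 or 15 months replicate 1 or 2, and Psmb9 without 3 months replicate 2 or 4 or 15 months replicate 2. Their adjusted p then rose to at most 0.0639, 0.0598 and 0.065. Ifit3 went the other way, at 0.69 with the ages separate (limma adjusted p = 0.0525). Of 14 antigen presentation genes 2 fell. Ciita, the master switch of MHC class II genes, was at 7.73, 7.45, 7.39 and 7.53 and then at 6.42, 6.64, 6.65 and 6.89, a 1.83-fold fall (limma adjusted p = 0.00876). H2-DMb1, which loads peptides on class II, fell by 0.58 (limma adjusted p = 0.0462) and lost its call without any array but 15 months replicate 3, with an adjusted p up to 0.126.

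Some complement genes rose. Of 13 complement genes 2 rose, against 1.86% of all genes, none fell and the median was 0.49. Among them C1qb, a chain of the C1q recognition complex, rose by 0.65 (limma adjusted p = 0.0426) and lost its call without any array but 3 months replicate 2, with an adjusted p up to 0.113. C1qa and C4b had changes of 1.24 and 0.87 with the ages separate (limma adjusted p = 0.0519 and 0.0704). Of 12 chemokines Cxcl10 rose (limma adjusted p = 0.0491). It was well above background on 1 array of 3 months, so its measured change of 2.60 rests on background signal there, and 3 months replicate 1 was at 5.14, within the range of 15 months, and the other 3 months arrays were at 2.48 to 2.61. Its call was lost without any array but 3 months replicate 1, with an adjusted p up to 0.13.

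Immune cell markers had no call by limma, over 10 macrophage, 7 T and NK cell and 3 B and plasma cell markers, with 5, 3 and 0 at an unadjusted p under 0.05. Their medians were 0.28, -0.42 and -0.27, and with normexp background correction those of the lymphocyte lists were -0.168 and -0.00901. The summed signal of the T and NK cell markers was 8410 to 9960 at 3 months and 7340 to 9330 at 15 months, and that of the macrophage markers 2370 to 3470 and 3040 to 3630. A sum follows its brightest genes. The list score of the T and NK cell markers did not overlap, at 0.11 to 0.32 and -0.21 to -0.1. That of the macrophage markers did, at -0.37 to 0.15 and 0.02 to 0.31. Of the defining T cell markers, Cd3d and Cd8a were below the detection filter. The part of these cells in the interferon and complement changes was not tested.

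A minority of vessel wall markers fell. Of 12 smooth muscle and pericyte markers 3 fell, against 1.83% of all genes, with a median of -0.30. They were the channel gene Kcnj8, the PDGF receptor gene Pdgfrb, both typical of pericytes, and Notch3, at -0.80, -0.72 and -0.66 (limma adjusted p = 0.0177, 0.026 and 0.0173). Kcnj8 had an adjusted p of 0.0572 without 3 months replicate 4 and Notch3 of 0.0501 without 15 months replicate 3. Pdgfrb lost its call without 3 months replicate 3 or 4 or 15 months replicate 1, 3 or 4, with an adjusted p up to 0.0679. Of 14 endothelial markers 2 fell, against the same 1.83% of all genes, with a median of -0.12. Cdh5, the cadherin of endothelial junctions, was at 10.53, 10.51, 10.92 and 11.00 and then at 9.93, 10.15, 9.92 and 10.12 (limma adjusted p = 0.0229), and Tie1 fell by 0.58 (limma adjusted p = 0.0432). Cdh5 lost its call without 3 months replicate 3 or 4 or any array of 15 months but replicate 4, with an adjusted p up to 0.0649, and Tie1 without any array but 3 months replicate 2 and 15 months replicate 3, with an adjusted p up to 0.12. Pecam1 and Kdr, which also define endothelium, had changes of 0.00 and 0.02.

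Summed endothelial signal overlapped, at 31300 to 39800 and 30700 to 39900, as did that of smooth muscle and pericyte markers, at 29200 to 40300 and 26300 to 31500. The part of vessel cells in the fall of Apln and Aplnr was not tested. Nerve and Schwann cell markers differed among samples of one age by more than between ages, with summed signals of 3120 to 16500 and 3250 to 15900 and 0 of 9 called. Of 7 erythroid and 4 skin markers 0 passed as well (limma). At an unadjusted p under 0.05 there were 0 nerve, 0 erythroid and 1 skin member.

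The step from 3 to 15 months was then set against the step from 24 to 29 months, which lay within the other slide and shares no sample with it. Of 21777 genes 144, which is 0.661%, differed between the steps (limma over 16 arrays). That count fell to between 56 and 93 without 3 months replicate 1, 3 or 4, any array of 15 months, 24 months replicate 2 or 4 or 29 months replicate 4, and it was 963 in the authors' deposited values. Of the genes called between 3 and 15 months, 401 of 781 or 51.3% moved the same way from 24 to 29 months, against 52.7% of all genes. Of the 413 genes called from 24 to 29 months, 31 were also called between 3 and 15 months in the same direction and 11 in the opposite one. Of all genes tested 3.69% were called between 3 and 15 months, and whether the overlap exceeds that share was not tested. The arrays of 15 and 24 months were in row 1 of their slides and those of 3 and 29 months in row 2. A difference between the steps is the same sum as 15 and 24 months against 3 and 29 months, so it cannot be told apart from array row.

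Levels late in life are given for some of these genes. Col1a1 was at 9.92, 8.23, 9.95 and 9.82 at 24 months and at 9.03, 10.20, 8.13 and 11.04 at 29 months, with overlapping ages, and its steps of -1.84 and 0.12 had no called difference (limma adjusted p = 0.277). Fam83g was at 8.43, 8.12, 7.66 and 8.08 and then at 7.61, 8.37, 7.96 and 8.51, near its level of 15 months. Its steps of 2.32 and 0.04 differed (limma adjusted p = 0.00404), and so did those of Amy1, 2.09 and 0.20 (limma adjusted p = 0.00404). Levels across the slides are set side by side only, since slide and age cannot be told apart there.

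For other genes the later step ran against the earlier one. Per2 was at 6.53, 7.02, 6.61 and 6.92 at 24 months and at 5.92, 5.08, 5.23 and 5.89 at 29 months, a step of -1.24 after one of 1.02 (limma adjusted p of the difference 0.00404). Scd1 was at 8.99, 9.24, 8.65 and 12.21 at 24 months, with replicate 4 far above the others. It was at 6.77, 6.34, 5.10 and 7.81 at 29 months, and its steps were 1.47 and -3.27 (limma adjusted p of the difference 0.0381). Pfkfb3, which makes the main activator of glycolysis, was at 14.63, 13.87, 14.73 and 13.76 at 3 months and at 13.64, 12.45, 12.78 and 11.48 at 15 months. Its 24 months samples were at 12.14, 12.13, 12.75 and 12.26 and its 29 months samples at 14.35, 13.10, 15.07 and 14.23. Its steps were -1.66, which had no call (limma adjusted p = 0.068), and 1.87, and they differed (limma adjusted p = 0.0191). By contrast Pdk4 moved the same way in both steps, by 1.48 and 2.26, and Ucp3 by 1.57 and 1.06.

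**Figure D5:**
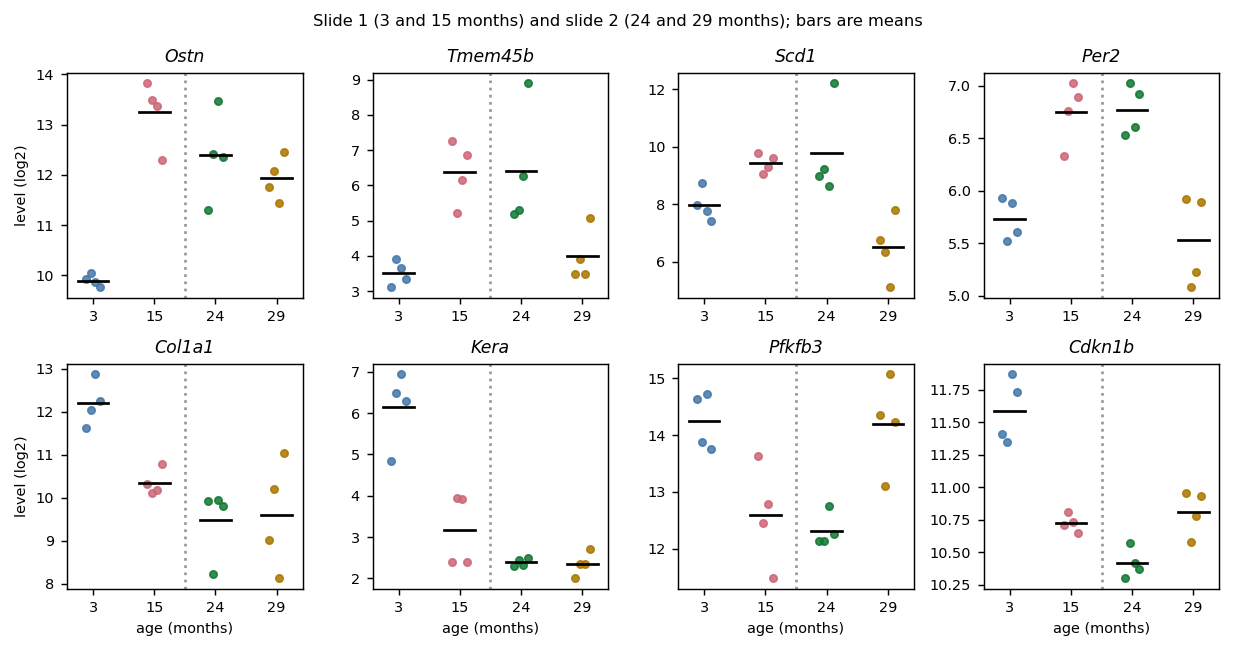
Levels (log2, y axis) of 8 genes in all 16 samples by age (x axis, months). Points are arrays, bars are means of 4, and the dotted line separates the slides. The means of Per2, Scd1 and Tmem45b are high at 15 and 24 months and low at 3 and 29 months. Tmem45b is not well above background at 3 months. For Scd1 and Tmem45b replicate 4 of 24 months is the highest array. The means of Pfkfb3 are low at 15 and 24 months and high at 3 and 29 months, and those of Col1a1 and Kera are highest at 3 months.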

How the data were processed

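Each scanner file gives an intensity per spot, which Feature Extraction 10.7.1.1 corrected for background, per the file headers. A deposited table of all arrays gives log2 values, with no account of how they were made in the sources used here. It was joined by feature number and used as an alternative only. Control spots and spots marked as outliers were left out. Signals were log2 transformed, each array's 75th percentile was taken off and the mean percentile added back. Of 55681 probes, 27553 were well above background on all 4 arrays of 3 or of 15 months. Those of Kera, Ifi44, Mcm5, Sqle, Eda2r and Cxcl10, among others, met this at 1 age only. Such genes entered through that age, and the filter favours their being higher there. A gene was its kept probe of highest mean, which gave 21184 genes, 13103 with a symbol from the RefSeq table of GRCm38.p6. Coordinates of that build are given only for its promoter windows, as the headers name another build for the probes.

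Age means of the 8 arrays were compared with limma 3.58.1 in R 4.3.3 (lmFit and eBayes, 6 residual and 3.09 prior degrees of freedom, two-sided, Benjamini-Hochberg over all genes). The fits were tested on simulated data. Replicate numbers follow the array column and did not pair the samples: deviations of samples with the same number correlated at -0.181 to 0.163. Named genes were the 12 largest rises and 12 largest falls among called genes with separate ages, leaving out clone and locus names, every called member of a list, for each list the 2 genes of lowest p, 25 fixed genes, and the 5 highest and 5 lowest differences of steps. Members beyond these, such as Adipoq, Glul and C1qa, were chosen after their values were seen. The members, lists and rules were chosen with earlier results of these data known. The 35 pathway and 12 marker lists were described by counts and medians, without a set test. Not every gene the rule names is printed. The alternatives were other scalings, backgrounds, filters and fits, the deposited log2 values, and leaving out each array. Normexp used median spot signals, since mean signals were not in the files used here. Some results are not reported here.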

Additional observations from a re-analysis of the deposited data

Results flagged for a closer look

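Of 380 groups of 4 samples, made of named genes and list scores at each age, 18 or 4.74% held 1 sample far from the other 3 by Dixon's ratio of gap to range. Its critical value is set so that chance gives about 1 in 20. At 3 months replicate 1 stood apart for Cxcl10 (level 5.14, others 2.48 to 2.61), Mcm5 (5.07, others 5.20 to 5.21) and the interferon score (0.12, others 0.22 to 0.24). A score is the mean, over the genes of a list, of a gene's log2 level minus its mean over the 8 arrays. Replicate 2 of 3 months did so for Dok7 (7.75, others 7.26 to 7.32). Replicate 4 of 3 months did so for Dbp (13.48, others 13.96 to 14.03), Timp1 (6.43, others 6.07 to 6.12) and the T and NK cell score (0.32, others 0.11 to 0.12).

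At 15 months replicate 1 stood apart for Zic1 (8.48, others 9.37 to 9.45), Col6a1 (10.78, others all 10.84) and the immediate early score (-0.35, others 0 to 0.06). Replicate 2 did so for Bst2 (9.20, others 9.05 to 9.08) and Txn1 (12, others 12.26 to 12.31). Replicate 3 did so for the scores of insulin signalling (-0.04, others 0.02 to 0.03), proliferation (0.07, others -0.15 to -0.12) and fibroblasts (-0.16, others -0.06 to -0.04). Replicate 4 did so for Casq2, the calcium store protein of slow fibres (10.72, others 9.26 to 9.41), the slow fibre score (1.16, others -0.30 to -0.27) and the skin score (0.18, others -0.08 to -0.04).

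For 21 named genes the step from 3 to 15 months differed from that of 24 to 29 months by limma over the 16 arrays. Over all genes 0.661% differed. The 5 highest and 5 lowest differences were named because this contrast called them. All the others but Dbp were named through their call between 3 and 15 months, a part of the contrast. The count of 21 is thus largely set by how genes were named and supports nothing. This contrast cannot be told apart from array row. The values of Tmem45b and Neto2 rest on 3 months signals, and that of Kera on 15 months signals, that were not well above background on 4, 3 and 4 arrays, so their sizes are measured values of no exact meaning and have no place in an order. The difference, earlier minus later step in log2 units, was positive for Tmem45b (5.30), Scd1 (4.73), Ostn (3.81), Neto2 (3.11), Col24a1 (2.96), Dbp (2.45), Fam83g (2.28), Per2 (2.26), Tfcp2l1 (2.22), Amy1 (1.89), Amy2a5 (1.72) and Ppp1r3c (1.69). It was negative for Pfkfb3 (-3.53), Kera (-2.93), Acot1 (-2.76), Slc43a1 (-2.75), Btg2 (-2.25), Kcnu1 (-1.55), Cdkn1b (-1.27), Ctsl (-1.24) and Gadd45b (-1.18). Dbp, a clock output gene, had steps of -0.34 and -2.79, and Acot1, a fatty acyl-CoA thioesterase, steps of 0.39 and 3.15.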

How the results depend on the processing

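The 4 arrays per age limit the precision, and signal over background limits which genes could be tested. Against 782 calls (395 higher, 387 lower), leaving out 1 array gave 349 to 537 (169 to 268 higher, 170 to 298 lower). Scaling by the median gave 493 (226 lower), no filter 215 (115 higher, 100 lower), all 16 arrays 212 (150 higher, 62 lower) and a null bound of 1.5-fold 19 (13 higher, 6 lower). The replicate block gave 381 calls (199 higher, 182 lower), 333 of them shared, although the numbers did not pair the samples, and only 15 months replicate 3 correlated best with its own number. Against 144 differences of steps, median scaling gave 55, normexp 421, the deposited values 963, no filter 50, array weights 263 and leaving out 1 array 56 to 162. List medians under normexp were -0.26 for interferon response, -0.17 for T and NK cells and -0.00901 for B cells. Under the deposited values they were 0.0144 for denervation, 0.11 for the clock and -0.0706 for chemokines. Leaving out 1 array gave -0.204 to -0.0603 for collagen folding, -0.0376 to 0.0602 for autophagy and -0.46 to -0.28 for T and NK cells. The direction reversed for Mcm3 in the deposited values (0.80). It also did for Plagl1 with 16 arrays (0.0156), where another of its probes was the brightest and stood for the gene. Of 87 named genes called, 45 kept the call without any one array, 79 in the deposited values, 53 with the block, 26 with 16 arrays and 19 under every setting other than leaving out an array. The causes were not tested.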

Other observations

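Some gene families were seen to hold several calls after the values were known, and they are given without a test of the family. Some of their members are in the lists above. Protocadherins of the beta cluster are cell adhesion proteins of a tandem gene array. Of 8 tested members 5 fell, 8 of 8 had a negative change and the median was -1.14, while 3.69% of all genes were called. Only 8 of the 22 on the array passed the detection filter, and Pcdhb6, Pcdhb14, Pcdhb16 and Pcdhb18 passed it through 3 months alone, so the filter favours members high at that age and these counts support nothing about the family. Pcdhb20 was at 6.78, 6.89, 7.08 and 6.94 at 3 months and at 6.01, 5.54, 5.45 and 5.39 at 15 months (log2 change -1.32 ± 0.14, limma adjusted p = 0.00323), and the ages were well apart. Pcdhb6, Pcdhb16, Pcdhb17 and Pcdhb21 fell by 1.5, 1.27, 1.15 and 1.14 on the log2 scale (limma adjusted p = 0.00245, 0.00571, 0.0107 and 0.00285). Pcdhb12 had a change of -0.07. The 4 tested members of the alpha and gamma clusters had no call, with changes of -0.01 to -0.29. Members of this family share similar stretches, and whether a probe reads more than 1 of them was not tested.

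Of 8 guanylate-binding protein genes, which are induced by interferon, 4 fell and none rose, and the median was -0.54. Over all genes tested 1.83% fell. Gbp7 was at 6.60, 6.83, 7.33 and 7.18 and then at 5.36, 5.80, 5.84 and 5.37, a change of -1.39 (limma adjusted p = 0.00835), and Gbp9 fell by 0.70 (limma adjusted p = 0.00956). Gbp2 and Gbp3 are given above with the interferon list. Gbp6 had a change of 0.55 with overlapping ages. Of 5 GIMAP genes, GTPases of lymphocytes and endothelium, 3 fell, against the same 1.83% of all genes, with a median of -0.62. They were Gimap1, Gimap4 and Gimap8, which fell by 0.50, 0.68 and 0.62 (limma adjusted p = 0.0404, 0.0149 and 0.0251). Over all 28 collagen genes tested 9 fell and 3 rose. The rises were in Col7a1, of the anchoring fibrils, from 10.03, 10.42, 10.28 and 9.56 to 11.23, 11.13, 11.41 and 11.47 (1.24, limma adjusted p = 0.00973), in Col11a2 (0.63, limma adjusted p = 0.0373) and in Col24a1 (1.33, limma adjusted p = 0.0397). These 3 are not in the list of fibrillar and network collagens above. Col24a1 lost its call without any array but 15 months replicate 1, with an adjusted p up to 0.108. Calls of other genes named here without any one array were not examined, apart from Pcdhb6, Gbp2 and Gbp3.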
